A study of Mus musculus with 35 samples.

Results

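The interferon-related gene families were the 71 gene symbols of the deposited tables that match a fixed pattern of names, among them the interferon regulatory factors (Irf), the Ifit, Ifitm and Ifi genes, Ifih1, the Isg genes, the guanylate-binding proteins (Gbp), the oligoadenylate synthetases (Oas), Stat2, Bst2, Mx1 and Mx2. Of these, 67 were listed in all 3 count tables, out of 32245 symbols in the lactate experiment and in the technique comparison and 35624 symbols in the AZD3965 experiment. Mx1, Mx2, Oas1b and Gbp11 were listed in the AZD3965 experiment only. The rule used names only.

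RNA was measured in 35 individually sequenced peritoneal macrophages of 6-month-old male C57BL/6 mice, kept as the adherent fraction of cells washed from the abdominal cavity. The lactate experiment held 8 lactate cells (Lactic27 to Lactic34), which had received 10 mM lactate for 72 h, and 8 untreated control cells (CTL27, CTL28 and CTL30 to CTL35). The AZD3965 experiment held 5 lactate+AZD cells, given lactate together with 300 nM AZD3965, an inhibitor of the lactate transporter MCT1, and 5 cells given lactate alone, so that both of its groups carried lactate. The technique comparison held 4 lactate-treated scMeT-seq cells, from which a capillary with a 300 nm opening drew cytoplasm before lysis, and 3 lactate-treated and 2 control cells lysed whole for SMART-seq2. The labels do not name the technique of the other experiments, which the methods describe as scMeT-seq. Each library was 1 cell, and the animal and the culture it came from are not stated, so each group counted as 1 sample. Differences were therefore described and not tested, and every interval below covers counting error only, within which amplified copies of a molecule are counted as if they were separate molecules.

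Interferons are secreted proteins that alert cells to infection. Type I interferons bind the receptor pair IFNAR1 and IFNAR2, and interferon gamma binds IFNGR1 and IFNGR2. Janus kinases on these receptors phosphorylate STAT proteins. A complex that holds STAT2 and IRF9 binds the interferon-stimulated response element (ISRE), while STAT dimers bind the gamma-activated site (GAS). The genes behind these elements block virus entry, sense or degrade foreign nucleic acid, and attack microbes inside macrophages, and several are also transcribed in resting macrophages.

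The stretches before the start sites of 6 members described below are shown. They were taken from members with a match, so each stretch holds an ISRE core or a GAS. Irf9, Oas2 and Ifi27l2a are also described below and were not among the members with a match. A link between the differences and these elements was not tested. Sequences were taken from RefSeq on GRCm38.p6, which matched 53 of the 71 members. They run 5′ to 3′ on the strand of the gene, and capitals mark an ISRE core (TTTCNNTTTC or GAAANNGAAA) or a GAS (TTCNNNGAA, which reads alike on the other strand).
Irf1, chr11:53769893-53769962, plus strand: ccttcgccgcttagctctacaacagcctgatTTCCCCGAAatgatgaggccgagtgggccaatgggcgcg
Irf8, chr8:120736165-120736234, plus strand: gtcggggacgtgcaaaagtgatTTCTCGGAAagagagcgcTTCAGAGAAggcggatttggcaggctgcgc
Gbp2, chr3:142620574-142620643, plus strand: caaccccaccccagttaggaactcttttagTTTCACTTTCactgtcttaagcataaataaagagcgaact
Oas1g, chr5:120887614-120887683, minus strand: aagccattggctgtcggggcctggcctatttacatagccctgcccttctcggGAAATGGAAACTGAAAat
Bst2, chr8:71537563-71537632, minus strand: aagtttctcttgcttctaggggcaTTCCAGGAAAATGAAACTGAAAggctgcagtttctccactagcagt
Stat2, chr10:128270248-128270317, plus strand: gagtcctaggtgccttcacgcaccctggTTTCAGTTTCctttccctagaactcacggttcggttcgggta

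In Irf1 the GAS began 90 bases before the start site. Irf8 held a pair of GAS letters, beginning 171 and 153 bases before it. Gbp2 held 1 ISRE core, 59 bases before its start site. In Oas1g and in Bst2 a pair of ISRE cores overlapped by 4 bases, and in Bst2 a GAS overlapped the first of them. Over windows of 300 bases, from 250 before to 50 after each start site and read on both strands, the ISRE core was found in 29 of 53 members (54.7%), against 3.99% of 27025 genes. The GAS was found in 13 of 53 members (24.5%), against 9.55% of all genes. The 29 members with an ISRE core had a count in a median of 12 cells, and none of them was at 0 in every cell. The 24 members without it had a count in a median of 7 cells, and 3 of them were at 0 throughout. Many of the names refer to interferon, so these shares are not independent of the choice of names. Near copies were counted separately, and the stretches of Ifi208 and Ifi213 were the same. A match of letters is a description of the sequence and was not related to binding.

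Total counts per cell were 289002 to 459859 in the lactate cells and 269393 to 449735 in the control cells, 58444 to 149792 in the lactate+AZD cells and 90523 to 175450 in the lactate cells of the same experiment, and 494520 to 851417 in the technique comparison. A gene with no count in a group was set to a floor of 3 counts, which is 0.987 CPM (counts divided by the total and multiplied by 1000000) in lactate cells, 1.02 in control cells, 5.16 in lactate+AZD cells and 4.16 in the lactate cells beside them. No pair of cells had identical counts. All 18 macrophage markers were found in every experiment, but 5 cells carried fibroblast or mesothelial markers at 10% or more of their macrophage markers. These were Lactic29 (28.4%, fibroblast markers), CTL30 (33%), CTL32, CTL35 (14.2%) and W14 of the lactate+AZD group (108%). CTL32 went against its label, with 1231.8 CPM of macrophage markers, against 36932.0 to 105861.7 CPM in the other 7 control cells, and fibroblast markers at 4868.8% of that. T or NK cell markers reached no more than 53.0 CPM in any cell. B cell markers were highest in W10, at 434 CPM, and in CTL30, at 263 CPM. The neutrophil or mast cell list summed to 798 CPM in lactate cells and 532 CPM in control cells. In the AZD3965 experiment it summed to 229 CPM in lactate+AZD cells and 569 CPM in lactate cells. In both experiments 2 of its 9 genes had counts. Over the whole fibroblast list, 10 of 12 measured genes were lower in lactate cells than in control cells, at 4978.4 CPM summed in lactate cells (1982.7 to 12123.3 per cell) and 11380.3 CPM in control cells (917 to 59974.4). With AZD3965, 8 of 10 measured fibroblast genes were higher. They summed to 10377.9 CPM in lactate+AZD cells (155 to 31475.6 per cell) and 4111.3 CPM in lactate cells (1504.7 to 9592). Mesothelial markers stood at 487 CPM in lactate+AZD cells (0 to 2001.3 per cell) and at 0 in lactate cells. Fn1, on the fibroblast list, had counts in every cell of both experiments. It gave 3736.9 CPM of the lactate sum and 4663.4 CPM of the control sum. In the AZD3965 experiment it gave 6071.6 CPM with the inhibitor and 2626.6 CPM without it. The other higher fibroblast genes and the measured mesothelial genes had counts in 1 of 5 lactate+AZD cells each. Macrophage markers summed to 69991.1 CPM in lactate cells and 62317.9 CPM in control cells, and to 57785.7 CPM in lactate+AZD cells and 84759.7 CPM in lactate cells. The part of other cell types in the differences below was not tested. Shares of called genes, and the values of several members and pathway genes, are also given without them.

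A core of the families was seen in nearly every cell, and most members in few. Ifi30, the lysosomal thiol reductase that prepares antigens for presentation, and Ifitm2 and Ifitm3, membrane proteins that stop viruses from fusing with endosomes, had a count in 35 of 35 cells. In all, 12 members were seen in at least 80% of the cells that listed them, among them Ifi27, Irf8, Bst2, Irf5, Oas1a, Irf7, Ifi207 and Irf2. At the other end, 24 members had a count in 1 to 5 cells, and 11 were at 0 in every cell, among them Gbp4, Gbp11, Ifi27l2b, Ifitm7, Irf4, Mx1, Mx2 and Oas1d. Ifi202b, a DNA-binding member of the Ifi200 family on chromosome 1, was seen in 8 of 10 cells of the AZD3965 experiment and in none of the 25 cells of the other experiments. Gbp9, Gbp10, Ifi44l and Ifi47 had counts in that experiment and none in the others either. Of 1255 genes with a count in all 10 cells of the AZD3965 experiment, 28 (2.23%) were listed at 0 in all 25 other cells. B2m, the light chain of class I MHC molecules, was one of them, at 1888.1 to 3507.6 CPM in the AZD3965 experiment. A value of 0 throughout the lactate experiment and the technique comparison is therefore given as listed at 0 and not as absence of the transcript.

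**Figure D1:**
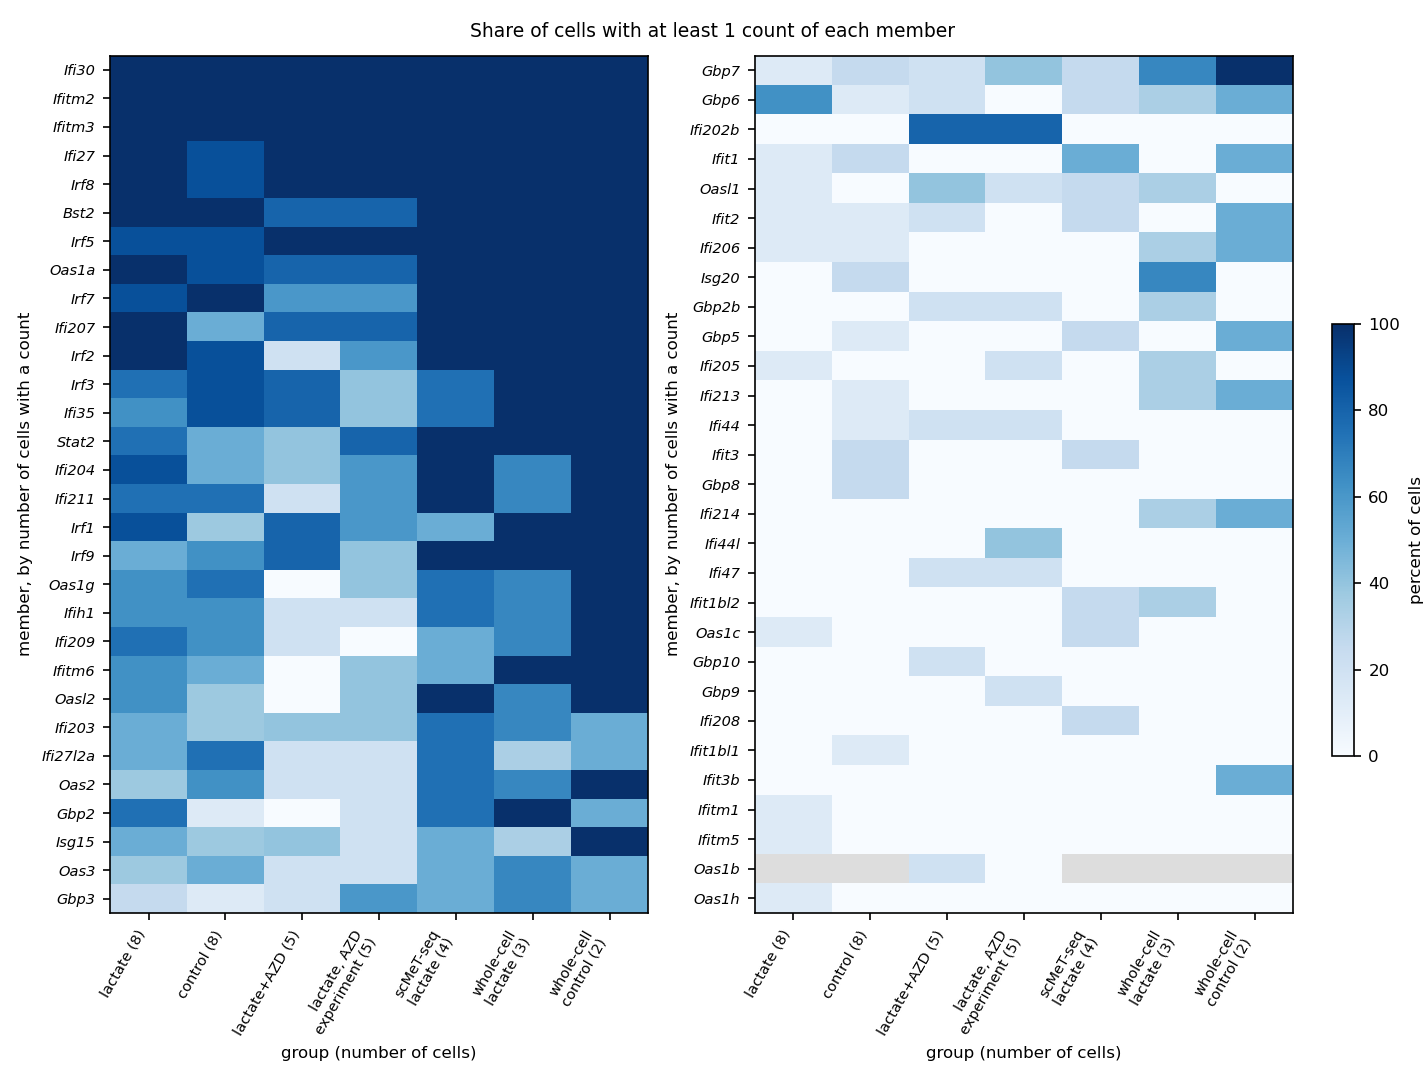
Share of the cells of each group with at least 1 count of a member, for members with a count anywhere, ordered from the most to the least often seen. Columns are the 7 groups with their numbers of cells, colour runs from 0 to 100% of cells, and grey marks a member that a table does not list. Ifi30, Ifitm2 and Ifitm3 are dark in every column, whereas the members of the right panel are seen in few cells.

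Per kilobase of annotated length, the 2 antiviral membrane proteins led. Ifitm2 had 814 CPM per kb in lactate cells and 756 in control cells of the lactate experiment. Ifitm3 had 714 in lactate cells and 802 in control cells, so the order of this pair changed between the groups. Ifi30 followed at 236 in lactate cells and 264 in control cells. Bst2 stood at 122 in lactate cells and 245 in control cells. It encodes tetherin, which holds budding virus at the cell surface. Irf5 and Irf8, which drive inflammatory and macrophage lineage genes, had the highest length-corrected levels of the transcription factors, with 58.3 CPM per kb for Irf5 and 41.2 for Irf8 in lactate cells, against 31.9 for Irf5 and 19.9 for Irf8 in control cells. With Ifi27, these genes also headed the order in scMeT-seq cells, where Ifitm2 reached 1208.8 CPM per kb.

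The number of members seen per cell was compared after each cell of a table was thinned to the smallest total of that table. A median of 24.5 members was seen in lactate cells (range 15 to 31) and 21.5 in control cells (15 to 34). In the AZD3965 experiment the medians were 17 (12 to 24) with the inhibitor and 20 (17 to 23) without it. In the technique comparison they were 27.5 (24 to 36) in scMeT-seq cells, 32 (26 to 33) in lactate-treated whole cells and 33.5 in the 2 control whole cells. Unthinned medians were 25.5 in lactate cells and 22.5 in control cells, and 19 in lactate+AZD cells and 21 in lactate cells, and thinning did not alter the medians of the technique comparison. The ranges overlapped within each experiment.

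Interferon genes were listed at 0 in nearly every cell. Of 21 interferon ligand genes listed, none had a count in the lactate experiment or in the AZD3965 experiment, and in the technique comparison 1 count of Ifnz was found in 1 of 9 cells. The receptors were present: in the lactate experiment Ifnar1, Ifnar2 and Ifngr2 had counts in 16 of 16 cells and Ifngr1 in 15. In the lactate experiment Ifnar2 had 340 CPM in lactate cells and 209 CPM in control cells (log2 ratio 0.70, 95% counting interval 0.55 to 0.85). Ifngr2 had 301 CPM in lactate cells and 184 CPM in control cells (0.71, 0.56 to 0.87), with cells from 79.6 to 443 CPM under lactate and from 3.71 to 276 CPM in control. None of the 7 measured receptors and kinases was past 2-fold, and the median of the list was 0.19. Without the cells with other markers 1 of 7, Jak2 at 1.74, was higher and 0 lower, beside 22.9% and 17.9% of all genes. The median of the list was then 0.06.

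Lactate was set against control over 39 members with at least 10 counts in both groups together. A difference was called when the log2 ratio of summed CPM was past 2-fold. By this rule 7 members were higher under lactate, against 15.1% of all 11505 genes measured, and 11 were lower, against 22.0% of all genes. The median log2 ratio of the members was 0.17, against -0.09 over all genes. Without the 4 cells of this experiment that carried other markers, 6 of 38 members were higher and 11 lower, against 22.9% and 17.9% of all genes, and the median of the members was -0.20, against 0.06 over all genes. The share of members called higher was near that of all genes, and the direction differed between families. Irf1, Irf8 and most measured guanylate-binding proteins stood on the higher side, and several Oas and Ifit genes, Irf9, Bst2 and Ifi27l2a on the lower side.

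**Figure D2:**
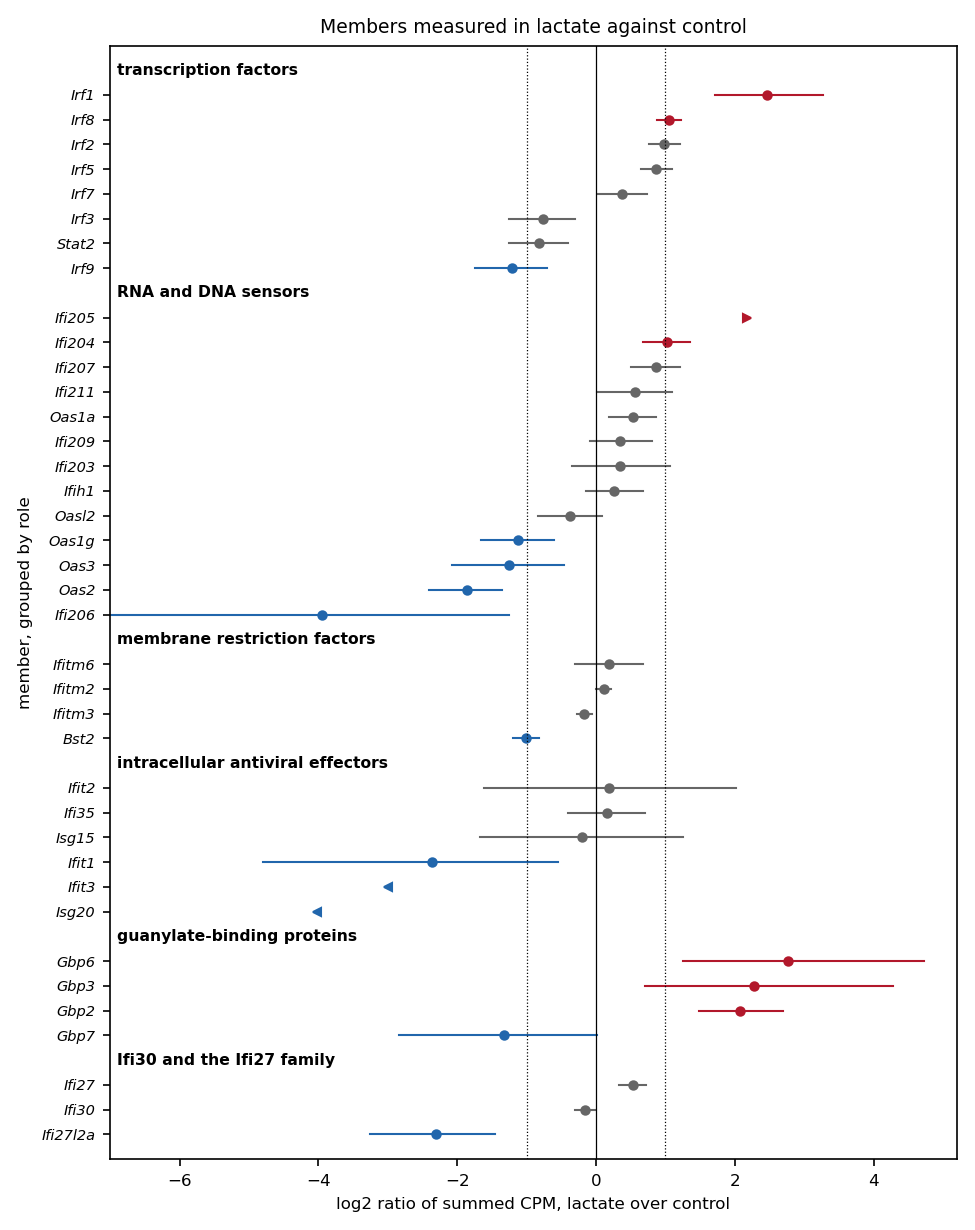
Log2 ratio of summed CPM, lactate over control, for measured members, grouped by role. Points are ratios and lines 95% counting intervals (that of Ifi206 runs off the axis). Red and blue mark members past 2-fold higher and lower, and dotted lines are the 2-fold limits. Arrowheads mark members with no count in a group, placed at the ratio that a floor of 3 counts gives. Irf1, Gbp2, Gbp3 and Gbp6 lie to the right and Oas2, Ifit1, Ifit3, Isg20 and Ifi27l2a to the left.

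Among the transcription factors, Irf1 differed most. Irf1 activates Gbp genes and antigen presentation downstream of interferon gamma. It had 0 to 69.6 CPM in lactate cells (median 19.4) and 0 to 22.8 CPM in control cells (median 0). Counts were found in 7 of 8 lactate cells and in 3 of 8 control cells, and 4 lactate cells, at 26.9 CPM and above, exceeded every control cell. The log2 ratio was 2.46 (1.72 to 3.27). It stayed between 2.15 and 3.25 with any cell left out, and was 2.84 without the cells with other markers.

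Irf8, which sets the macrophage lineage, had 107 to 534 CPM in lactate cells (median 306) and 0 to 354 CPM in control cells (median 107). The groups overlapped, with 2 lactate cells under 200 CPM and 2 control cells over it. The log2 ratio of 1.05 (0.88 to 1.22) lay at the 2-fold limit. It was 0.86 without CTL32, which had no Irf8 count, and 0.80 without all cells with other markers, so the call did not hold without them. Irf2 and Irf5 were similar in size, at 0.98 (0.76 to 1.21) and 0.87 (0.65 to 1.09), and not past 2-fold.

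Stat2 and Irf9, which act in the complex that binds the ISRE, both stood on the lower side. Stat2 had 25.0 CPM in lactate cells and 44.2 CPM in control cells (-0.82, -1.25 to -0.40), and was past 2-fold, at -1.64, without the cells with other markers. It was seen in 6 of 8 lactate cells (median 10.2 CPM) and in 4 of 8 control cells (median 13.7 CPM). CTL31, at 179 CPM, held 49.1% of the control value, and CTL34 followed at 118 CPM. Irf9, which brings the complex to DNA, was lower at 15.1 CPM in lactate cells, against 35 CPM in control cells (-1.21, -1.74 to -0.70). Irf9 ran from 0 to 53.7 CPM in lactate cells (median 5.73) and from 0 to 98.6 CPM in control cells (median 20.6). The 2 highest values were those of CTL30 and CTL31, and the ratio was -0.73 without CTL30 and -0.53 without all cells with other markers, no longer past 2-fold. Irf3 and Irf7, which switch on the interferon genes themselves, were at -0.77 and 0.38.

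Of the guanylate-binding proteins, GTPases that break open the vacuoles of intracellular microbes, 3 were higher and 1 lower among 4 measured. Summed over the family with Ifi47, they had 60.9 CPM in lactate cells and 21.8 CPM in control cells, and at least 1 of them was seen in 7 of 8 lactate cells and in 3 of 8 control cells. Gbp2 led this. It had 61.6, 53.7, 39.2, 97.8, 60.5 and 31.5 CPM in Lactic27, Lactic28, Lactic29, Lactic30, Lactic33 and Lactic34 and 0 in the remaining 2 lactate cells, against 92.2 CPM in CTL35 and 0 in the other 7 control cells. The log2 ratio was 2.07 (1.49 to 2.69). Without CTL35, which carried fibroblast markers and all the control counts, it was 5.22 against a floor of 3 counts. Gbp6 was seen in 5 lactate cells and in CTL33 (28 counts under lactate and 4 in control), and Gbp3 in 2 lactate cells and in CTL33 (20 counts under lactate and 4 in control), so that CTL33 alone held the control counts of both. Without the cells with other markers Gbp6 was at 2.25 and Gbp3 at 1.41. Lactic32 held 15 of the 20 lactate counts of Gbp3, and without it the gene fell under 10 counts and was not measured. Gbp7 had 7 counts in 1 lactate cell and 17 counts in 2 control cells, with an interval of -2.84 to 0.02. Gbp genes lie in tandem and are alike in sequence, so reads may have been shared among them.

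The oligoadenylate synthetases, which sense double-stranded RNA and activate RNase L, differed among themselves. Oas2 was lower, at 13.2 CPM in lactate cells and 47.9 CPM in control cells (-1.86, -2.41 to -1.35). It had a count in 3 of 8 lactate cells, of which Lactic32 was highest at 52.2 CPM, and in 5 of 8 control cells, of which CTL27 was highest at 267 CPM. CTL27 held 58.9% of the control value, and without it the ratio was -0.97, while without the cells with other markers it was -2.44. Oas1g ran from 0 to 65.2 CPM in lactate cells (median 4.66) and from 0 to 92.2 CPM in control cells (median 23.0), for a ratio of -1.12 (-1.66 to -0.60) that was -0.76 without CTL28. Oas3 was also lower (-1.25, -2.08 to -0.46), but was -0.49 without CTL28, whereas Oas1a, at 59.9 CPM in lactate cells and 41.5 CPM in control cells, was not (0.53, 0.19 to 0.87). Oas1a and Oas1g are close neighbours and near copies, so how reads were divided between them is uncertain.

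Among the Ifi200 genes, whose products bind DNA in the nucleus and cytoplasm, Ifi204 had 76.3 CPM in lactate cells and 37.7 CPM in control cells (1.02, 0.68 to 1.36). Its values ran from 0 to 439 CPM in lactate cells (median 30.7) and from 0 to 122 CPM in control cells (median 10.3). Lactic31 held 63.3% of the lactate value, and without it the ratio was 0.02, while without the cells with other markers it was 1.84. Ifi207 was seen in 8 of 8 lactate cells and in 4 of 8 control cells, at 67.1 CPM in lactate cells and 37.0 CPM in control cells (0.86, 0.51 to 1.21). Without the cells with other markers the ratio of Ifi207 was 0.31 (-0.05 to 0.67). Ifi205, with 14 counts in Lactic33 and none in control, was at least 4.52-fold higher, and Ifi206 had 1 count under lactate and 15 in control (-3.95, -9.35 to -1.25). These genes too are near copies in a tandem array. Ifih1, the sensor of long double-stranded RNA also known as MDA5, was at 0.26.

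The intracellular antiviral effectors were scarce in both groups, at 26.3 CPM summed in lactate cells and 53.4 CPM in control cells. Isg20, an exonuclease that degrades viral RNA, had no count in 8 lactate cells and 47 counts in CTL28 and CTL32. Against the floor of 3 counts it was 16.2-fold lower. Ifit3 had no count under lactate and 23 counts in CTL28 and CTL30, 7.92-fold lower against the same floor. Ifit1, which binds viral RNA ends, had 3 counts in lactate cells and 15 counts in control cells (-2.37, -4.80 to -0.55). Isg15, a ubiquitin-like modifier, had 9 counts in 4 lactate cells and 10 counts in 3 control cells and was at -0.20 (-1.67 to 1.25). Few cells held these counts, and no difference in how often they were seen was tested.

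Bst2 was the lower member of the membrane factors. It had 11.9 to 214 CPM in lactate cells (median 96.0) and 19.4 to 445 CPM in control cells (median 199). CTL27, CTL28, CTL31 and CTL34 lay above every lactate cell, and CTL32, at 19.4 CPM, lay among the lowest cells. The log2 ratio was -1.01 (-1.20 to -0.82), -0.83 without CTL28, -0.93 with TMM scaling and -1.31 without the cells with other markers. Ifitm2 and Ifitm3 were close to level, at 0.11 (0.00 to 0.21) and -0.17 (-0.27 to -0.06). Ifitm2 ran from 274 to 807 CPM in lactate cells (median 514) and from 265 to 737 CPM in control cells (median 553). Ifitm3 ran from 298 to 675 CPM in lactate cells (median 483) and from 169 to 1404.2 CPM in control cells (median 492), the highest in CTL35.

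Ifi30 also differed little, with 125 to 344 CPM in lactate cells (median 220) and 58.1 to 559 CPM in control cells (median 176), for a ratio of -0.16 (-0.31 to -0.01). Ifi27, a small protein of the mitochondrial and nuclear membrane, had 124 to 244 CPM in lactate cells (median 166) and 0 to 261 CPM in control cells (median 119), for 0.53 (0.33 to 0.72). The spread of Ifi27 was narrower under lactate, with every lactate cell above 100 CPM and 4 control cells under 50 CPM. Its relative Ifi27l2a went the other way. Ifi27l2a had 0 to 11.2 CPM in lactate cells (median 3.26) and 0 to 110 CPM in control cells (median 9.02), and CTL31 held 58.6% of the control value. Its ratio of -2.31 (-3.25 to -1.46) was -1.19 without CTL31 and stayed past 2-fold with any cell left out.

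**Figure D3:**
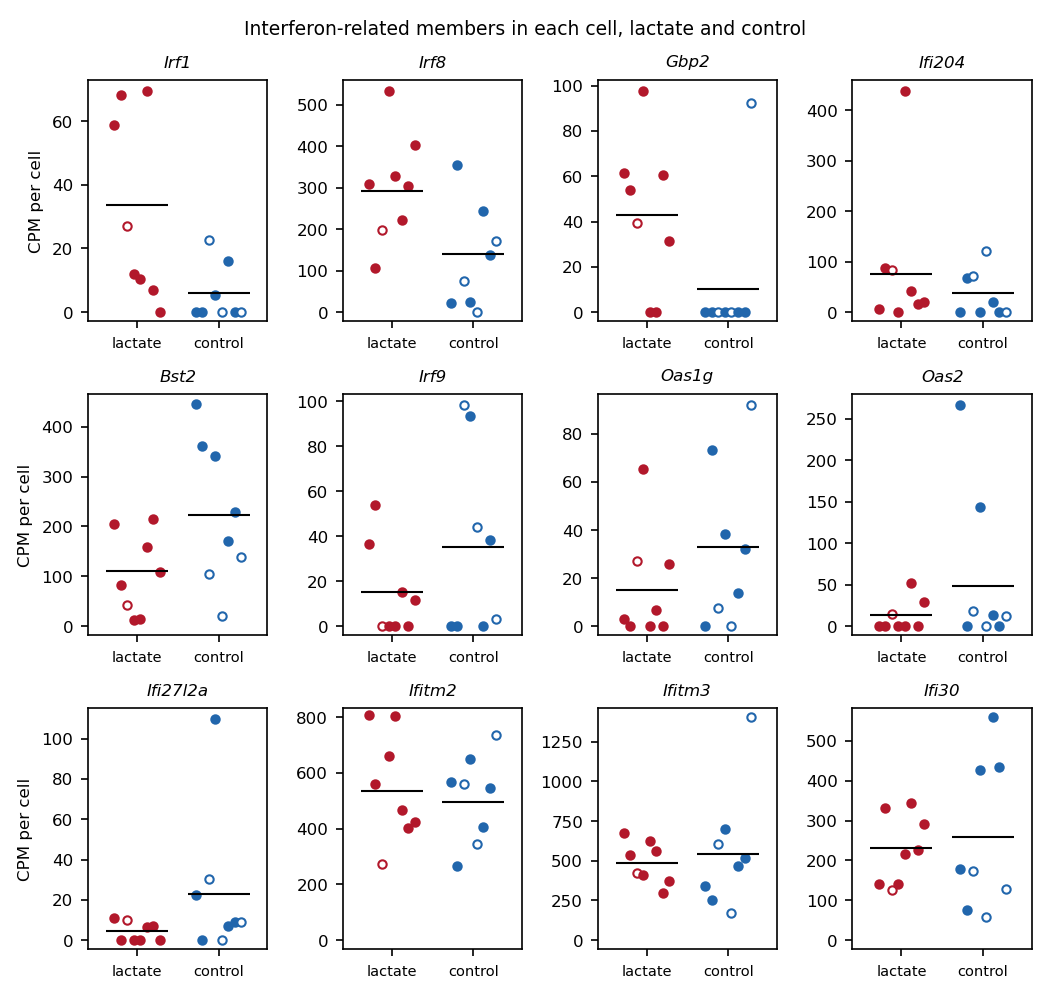
CPM of 12 members in each of 8 lactate cells (red) and 8 control cells (blue). Each point is 1 cell, open points are the cells with fibroblast or mesothelial markers at 10% or more of the macrophage markers, and the black line is the CPM of the summed counts. Gbp2 is at 0 in 7 of 8 control cells, while Ifitm2, Ifitm3 and Ifi30 overlap throughout.

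The rest of the pathway was read from lists of genes outside the families. Of the nucleic acid sensors upstream of interferon, 4 of 12 measured were higher and 2 lower, beside 15.1% and 22.0% of all genes. Without the cells with other markers 2 of 12 were higher and 2 lower, beside 22.9% and 17.9% of all genes. Tlr7, the endosomal receptor for single-stranded RNA, had 43.0 to 381 CPM in lactate cells and 0 to 123 CPM in control cells (1.35, 1.12 to 1.59). Aim2, a cytosolic DNA sensor of the inflammasome, was at 1.10 and Ticam1, the adaptor of Tlr3, at 1.04, while Ddx58, which encodes RIG-I, was lower at -1.43 (-1.85 to -1.02). Without those cells Tlr7 was at 1.17, Ticam1 at 1.74 and Ddx58 at -1.35, and Aim2, at 0.60, was not past 2-fold. Of 32 measured interferon-inducible genes outside the families, 3 were higher and 1 lower, beside 15.1% and 22.0% of all genes. Without those cells 7 were higher and 3 lower, beside 22.9% and 17.9% of all genes. Cd274, which encodes PD-L1, ran from 43.9 to 368 CPM in 8 of 8 lactate cells and was at 0 in 3 of 8 control cells, with a ratio of 1.81 (1.52 to 2.11). Parp14 was at 1.85 (1.44 to 2.28), and without the cells with other markers Cd274 was at 1.26 and Parp14 at 1.81. Of the other STAT factors, Stat4 was higher (2.07, 1.30 to 2.93) on 74 counts under lactate and 17 in control, and at 1.87 without the cells with other markers. None of 7 measured feedback inhibitors was past 2-fold, and 2 of 6 were higher without those cells, beside 22.9% of all genes.

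The technique comparison gave a second look at lactate in whole cells, 3 lactate-treated against 2 control, which shared no cell with the lactate experiment. Here 5 of 36 measured members were higher, against 15.2% of all 9732 genes, and 11 were lower, against 27.6%. The median of the members was -0.28, against -0.20 over all genes, and TMM scaling shifted every ratio of this comparison by 0.19. Among 35 members measured in both comparisons, 15 (42.9%) had the same sign, as did 47.4% of 9395 genes. Of the 7 members higher in the lactate experiment, Gbp3 and Gbp6 (28.6%) were higher again, which is 40.0% of the 5 higher in whole cells. Gbp6 rested there on 9 counts under lactate and 1 in control. Gbp2 was not past 2-fold in whole cells, at 38.4 CPM under lactate and 30.4 CPM in control, all of the latter in CTL4. Of the 11 lower members, Ifi27l2a, Ifit1, Oas1g and Oas2 (36.4%) were lower again, 36.4% of the 11 lower in whole cells. None of these 4 was past 2-fold lower in whole cells without CTL4, which held all 28 control counts of Ifi27l2a and all 13 of Ifit1. Over all genes, 11.5% of those higher and 19.6% of those lower in the lactate experiment were called the same way. Isg20 was past 2-fold in opposite directions, and Irf1 and Irf8, at -0.18 and -0.21, were not higher in these whole cells.

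**Figure D4:**
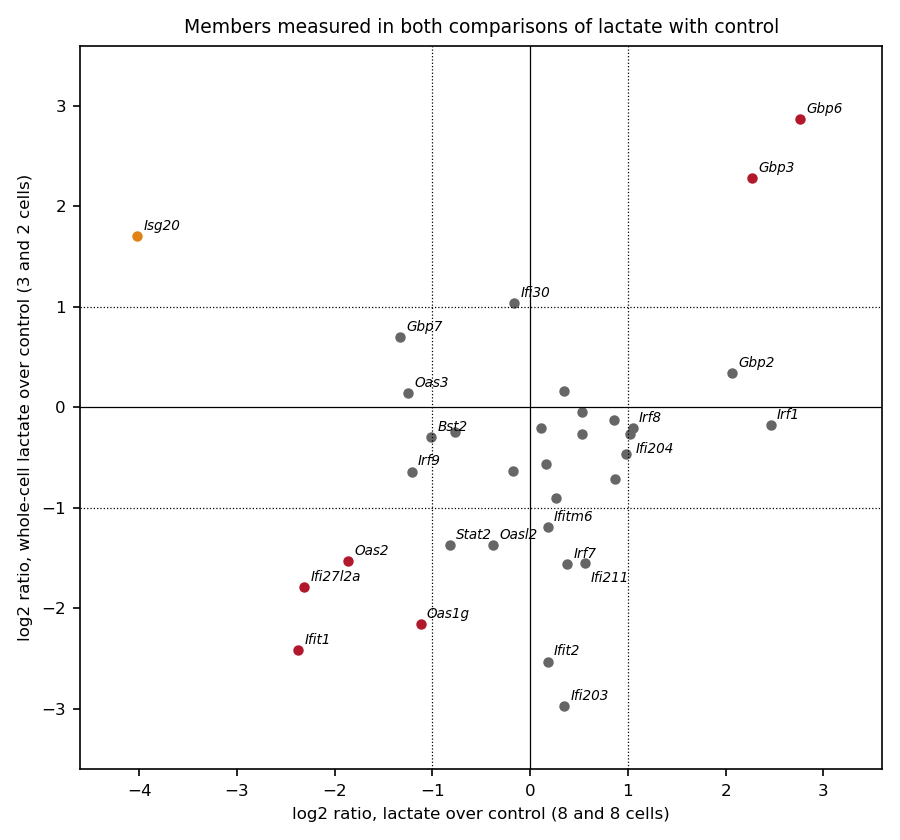
Log2 ratio of lactate over control for members measured both in the lactate experiment (x axis, 8 and 8 cells) and in whole cells of the technique comparison (y axis, 3 and 2 cells). Red points are past 2-fold in the same direction in both, the orange point, Isg20, in opposite directions, and dotted lines are the 2-fold limits. Gbp3 and Gbp6 lie at the upper right, and Oas2, Oas1g, Ifi27l2a and Ifit1 at the lower left.

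In these whole cells Ifi30 was higher, with 534, 475 and 492 CPM in Lactic5, Lactic6 and Lactic7, against 224 and 269 CPM in CTL4 and CTL8. The log2 ratio was 1.04 (0.86 to 1.23), or 0.89 without CTL4. Ifitm3 had 279, 393 and 532 CPM in the lactate cells and 566 and 742 CPM in the control cells. It was not past 2-fold (-0.63, -0.77 to -0.48). Ifi211 was lower, at 0, 14.7 and 15.7 CPM in the lactate cells against 18.8 and 51.7 CPM in the control cells (-1.55, -2.40 to -0.74), and was -0.79 without CTL8.

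Several of the lower members stood on CTL4, the deeper control cell. Irf7 had 16.2, 39.2 and 22.0 CPM in the lactate cells, against 116 CPM in CTL4 and 19.6 CPM in CTL8. Its ratio of -1.56 (-2.09 to -1.05) turned to 0.43 without CTL4. Stat2 had 78.9, 26.1 and 11 CPM in the lactate cells, against 134 CPM in CTL4 and 28.5 CPM in CTL8 (-1.37, -1.83 to -0.92), and turned to 0.32. Oasl2, an Oas-like protein, had 0, 40.8 and 55.1 CPM in the lactate cells, against 146 CPM in CTL4 and 3.57 CPM in CTL8 (-1.37, -1.84 to -0.92), and turned to 3.27.

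Oas1g had 8.09, 0 and 26.7 CPM in the lactate cells, against 74.0 and 23.2 CPM in CTL4 and CTL8 (-2.16, -2.93 to -1.45), and was -0.94 without CTL4. Oas2 had 50.6, 18 and 0 CPM in the lactate cells, against 78.7 and 30.3 CPM in the control cells (-1.53, -2.13 to -0.95), and was -0.55 without CTL4. Both were lower in the sums, but a lactate cell exceeded a control cell in each. Ifi203 had 0, 4.90 and 4.72 CPM in the lactate cells, against 44.6 and 0 CPM in the control cells (-2.97, -4.50 to -1.71). Ifitm6 had 26.3, 6.53 and 36.2 CPM in the lactate cells, against 8.22 and 119 CPM in the control cells (-1.19, -1.78 to -0.62), and turned to 1.48 without CTL8. Besides Ifi30, Gbp3 was the higher member that met the naming rule, at 70.8, 0 and 29.9 CPM in the lactate cells against 10.6 and 0 CPM in the control cells (2.28, 1.25 to 3.49).

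The most abundant members were nearer to level in whole cells. Ifitm2 had 698, 501 and 617 CPM in lactate cells, against 675 and 717 CPM in control cells (-0.21, -0.33 to -0.08). Irf8 had 311, 349 and 156 CPM in lactate cells, against 179 and 512 CPM in control cells, and its ratio ran from -0.93 to 0.59 with single cells left out. Bst2 had 192, 103 and 135 CPM in lactate cells, against 190 and 144 CPM in control cells (-0.30, -0.56 to -0.04). Ifi27 had 285, 165 and 299 CPM in lactate cells, against 275 and 230 CPM in control cells (-0.05, -0.26 to 0.15). Outside the families, 9 of 30 measured interferon-inducible genes were lower and 0 higher, beside 27.6% and 15.2% of all genes. Parp14, higher in the lactate experiment, was lower here with 0, 14.7 and 15.7 CPM in lactate cells, against 94.0 and 64.2 CPM in control cells (-2.91, -3.70 to -2.21). Adar, which edits double-stranded RNA, had 0, 11.4 and 14.2 CPM in lactate cells, against 42.3 and 64.2 CPM in control cells (-2.47, -3.35 to -1.68).

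Lactate+AZD was set against lactate alone over 34 measured members. Of these, 9 were higher, against 24.9% of all 8764 genes, and 8 were lower, against 15.6%. The median of the members was -0.15, against 0.17 over all genes, and TMM scaling shifted every ratio of this comparison by -0.16. Without W14, whose fibroblast markers matched its macrophage markers, 7 of 30 members were higher and 10 lower, against 20.5% and 21.6% of all genes, and the median of the members was -0.30, against 0.04. Counts were low at this depth, and only Irf9, Oas1a and Gbp3 among the called members that met the naming rule stayed past 2-fold with every cell left out in turn. These 3 also stayed past 2-fold without W14, at 1.87 for Irf9, -1.40 for Oas1a and -1.68 for Gbp3.

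Irf9 was higher with the inhibitor. It had 49.6, 0, 55.3, 113 and 56.6 CPM in T10, F8, F9, W10 and W14, against 0, 62.7, 22.1, 0 and 0 CPM in T11, T13, F18, W5 and W20. Counts were found in 4 of 5 lactate+AZD cells and in 2 of 5 lactate cells, and T13 lay above all treated cells but W10. The log2 ratio was 1.82 (0.87 to 2.86) on 37 counts with the inhibitor and 13 without it. Irf3 was also higher, with 14.2, 51.3, 0, 60.1 and 28.3 CPM in the same treated cells, against 12.6, 0, 66.3, 0 and 0 CPM in lactate cells (1.48, 0.21 to 2.89), but the highest cell of all was F18, a lactate cell. Without W10 its ratio was 0.91, and without W14 it was 1.52.

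Stat2, which acts beside Irf9 in the ISRE-binding complex, was lower with the inhibitor. Stat2 had 21.2, 0, 0, 0 and 28.3 CPM in lactate+AZD cells and 31.4, 34.2, 166, 15.0 and 0 CPM in lactate cells (-1.69, -3.13 to -0.46). F18 was far above the other cells, and without it the ratio was -0.78, while without W14 it was -2.51. Irf8 was nearly level, at 382, 291, 177, 254 and 141 CPM in lactate+AZD cells and 113, 274, 508, 352 and 315 CPM in lactate cells (-0.22, -0.54 to 0.09). Irf5 had 220, 120, 22.1, 127 and 84.9 CPM in lactate+AZD cells, against 170, 85.5, 287, 105 and 111 CPM in lactate cells (-0.18, -0.64 to 0.27).

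**Figure D5:**
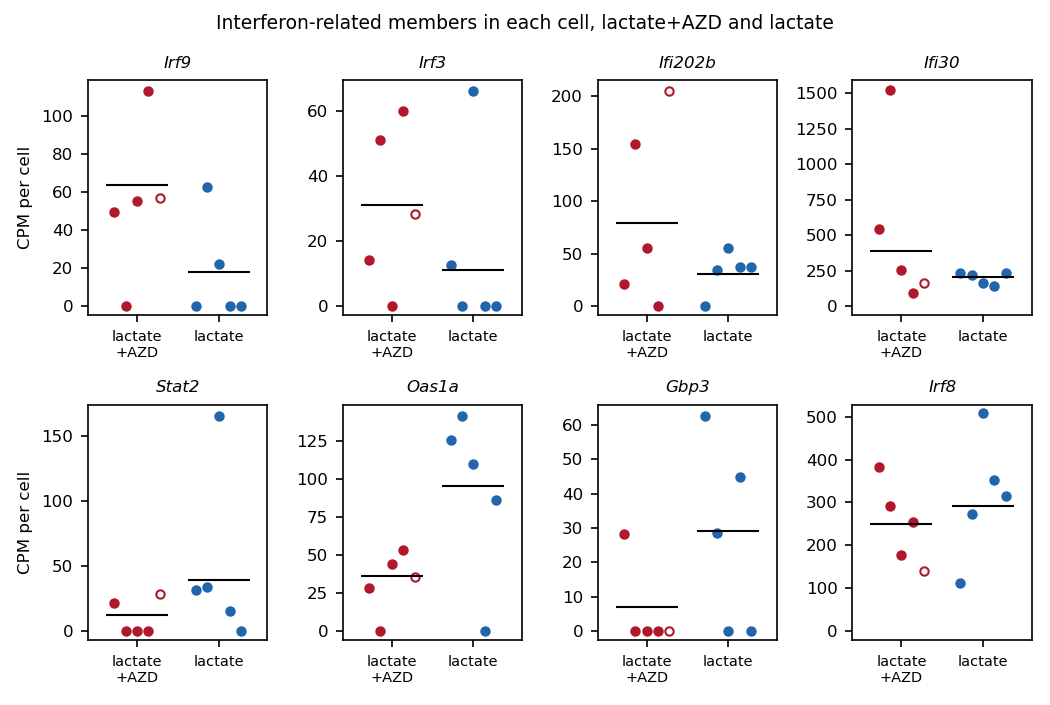
CPM of 8 members in each of 5 lactate+AZD cells (red) and 5 lactate cells (blue). Each point is 1 cell, the open point is W14, whose fibroblast markers matched its macrophage markers, and the black line is the CPM of the summed counts. Oas1a lies under 60 CPM in every lactate+AZD cell and above 80 CPM in 4 of 5 lactate cells, while F8 stands far above the rest for Ifi30.

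Oas1a was lower with the inhibitor. It had 28.3, 0, 44.3, 53.4 and 35.4 CPM in lactate+AZD cells and 126, 142, 110, 0 and 86.4 CPM in lactate cells. Every lactate cell but W5 exceeded every lactate+AZD cell. The log2 ratio was -1.41 (-2.19 to -0.68) on 21 counts with the inhibitor and 69 without it, and ran from -1.70 to -1.16 with single cells left out. Gbp3 was seen in T10 alone of the lactate+AZD cells, at 28.3 CPM, and in T11, T13 and W5 of the lactate cells, at 62.8, 28.5 and 45.0 CPM (-2.08, -4.08 to -0.51). Oas1g and Ifitm6 had no count in lactate+AZD cells and 10 and 21 counts in 2 lactate cells each. Against the floor of 3 counts they were 2.69-fold and 5.65-fold lower.

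Other Gbp genes were high in a single cell. W14 held all counts of Gbp6 (77.8 CPM) and Gbp10 (21.2 CPM) in this experiment, and 99.0 CPM of Gbp2b and 106 CPM of Ifi47, another interferon-inducible GTPase. T13, a lactate cell, held counts of 5 of the 12 listed members of this group: Gbp2, Gbp2b, Gbp3, Gbp7 and Gbp9. W10 held all counts of Ifi209 (127 CPM) and Ifit2 (73.4 CPM). Ifi202b was higher with the inhibitor, at 21.2, 154, 55.3, 0 and 205 CPM in lactate+AZD cells, against 0, 34.2, 55.2, 37.5 and 37.0 CPM in lactate cells (1.37, 0.61 to 2.18), and without W14 its ratio was 0.34.

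The abundant effectors differed by less than 2-fold when all cells were counted. Ifi30 had 545, 1522.8, 254, 93.5 and 163 CPM in lactate+AZD cells and 232, 217, 166, 142 and 234 CPM in lactate cells (0.93, 0.62 to 1.24). F8, the cell with the fewest counts, held 59.1% of the lactate+AZD value, and without it the ratio was 0.36, whereas without W14 it was 1.18, past 2-fold. Ifi27 had 354, 291, 88.5, 334 and 91.9 CPM in lactate+AZD cells, against 81.7, 296, 221, 232 and 123 CPM in lactate cells (0.33, -0.02 to 0.68). Ifitm2 had 99.1, 376, 476, 254 and 502 CPM in lactate+AZD cells, against 207, 205, 287, 262 and 376 CPM in lactate cells (0.29, -0.01 to 0.59). Ifitm3 had 170, 154, 321, 320 and 191 CPM in lactate+AZD cells, against 163, 154, 519, 150 and 444 CPM in lactate cells (-0.18, -0.50 to 0.15). The cells of the groups overlapped for each of these members.

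Outside the families, 4 of 8 measured receptors and kinases were higher with AZD3965 and 0 lower, beside 24.9% and 15.6% of all genes. Without W14, 2 of 6 were higher and 1 lower, beside 20.5% and 21.6% of all genes. Ifngr2 had 106, 51.3, 199, 167 and 198 CPM in lactate+AZD cells and 37.7, 57.0, 110, 82.4 and 18.5 CPM in lactate cells (1.46, 0.91 to 2.04), with 3 treated cells above every lactate cell. Jak1, the kinase shared by both receptor types, was at 1.05 (0.71 to 1.39). Without W14 Ifngr2 was at 1.32 and Jak1 at 1.08. Ifngr1, the other chain of the interferon gamma receptor, went the other way. It was at -0.83 (-1.27 to -0.41), and at -1.45 without W14. Of the sensors upstream of interferon, 7 of 11 were higher and 2 lower, beside 24.9% and 15.6% of all genes. Without W14, 3 of 8 were higher and 2 lower, beside 20.5% and 21.6% of all genes. Tbk1, the kinase that activates Irf3, had counts in 5 of 5 lactate+AZD cells and in 2 of 5 lactate cells (1.92, 1.19 to 2.70), whereas the adaptor Myd88 had counts in 2 of 5 lactate+AZD cells and in 5 of 5 lactate cells (-2.37, -4.08 to -1.0). Without W14 Tbk1 was at 2.13 and Myd88 at -3.29. Of the interferon-inducible genes outside the families, 9 of 31 were higher and 7 lower, beside 24.9% and 15.6% of all genes. Without W14 the counts were 10 and 8 of 31, beside 20.5% and 21.6% of all genes. Trim25, a ubiquitin ligase of the RIG-I pathway, was at 4.15 (2.51 to 6.48), and the immunoproteasome genes Psmb9 and Psmb10 were at -1.55 and -1.75. Psmb8, another immunoproteasome gene, had more counts and was not past 2-fold, at -0.52 (-0.96 to -0.09). Without W14 Trim25 was at 3.93, Psmb8 at -0.38, Psmb9 at -1.15 and Psmb10 at -2.01.

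Sampling of cytoplasm before lysis was examined with 4 scMeT-seq cells against 3 whole cells, all lactate-treated, and these 3 whole cells also served in the whole-cell comparison above. Of 37 measured members, 6 were higher, against 21.7% of all 9723 genes, and 7 were lower, against 20.6%. The median of the members was 0.31, against 0.02 over all genes. Against these 3 whole cells, the shares of members called were near those of all genes or under them. The shares of members called were thus near those of all genes or under them.

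Irf7 was the clearest of the higher members. It had 3.14, 139, 81.1 and 147 CPM in Lactic13, Lactic14, Lactic16 and Lactic17, against 16.2, 39.2 and 22.0 CPM in the whole cells, with 3 scMeT-seq cells above and 1 below all whole cells. The log2 ratio was 1.79 (1.33 to 2.28), and 0.89 against all 5 whole cells, which include the untreated ones. Irf5 had 65.9, 373, 397 and 221 CPM in scMeT-seq cells, against 4.04, 181 and 126 CPM in whole cells (1.21, 0.98 to 1.45), and without Lactic5 its ratio was 0.75. Lactic13 was thus low for both factors, and Irf8 was level at 311, 219, 203 and 395 CPM in scMeT-seq cells against 311, 349 and 156 CPM in whole cells (0.10, -0.07 to 0.28).

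Of the 7 lower members, Ifi209, Gbp7 and Gbp3 rested on Lactic5. Ifi209 had 14.1, 0, 0 and 35.4 CPM in scMeT-seq cells, against 135, 16.3 and 0 CPM in whole cells (-1.71, -2.34 to -1.10), and turned to 0.76 without Lactic5. Gbp7 had 26.5 CPM in Lactic17 and 0 in the other scMeT-seq cells, against 84.9, 0 and 3.15 CPM in the whole cells (-1.78, -2.65 to -0.95), and turned to 2.20 without Lactic5. Gbp3 had 0, 0, 43.0 and 13.3 CPM in scMeT-seq cells, against 70.8, 0 and 29.9 CPM in whole cells (-1.11, -1.77 to -0.47), and was -0.09 without it. Ifitm6, a relative of Ifitm3, had 0, 38.5, 13.2 and 0 CPM in scMeT-seq cells, against 26.3, 6.53 and 36.2 CPM in whole cells (-1.0, -1.75 to -0.27).

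Ifi30, Ifi27, Ifitm2 and Ifitm3 were not past 2-fold. Ifi30 had 475, 750, 354 and 551 CPM in scMeT-seq cells and 534, 475 and 492 CPM in whole cells (0.08, -0.05 to 0.20). Ifi27 had 180, 545, 301 and 268 CPM in scMeT-seq cells, against 285, 165 and 299 CPM in whole cells (0.33, 0.16 to 0.51). Ifitm2 had 248, 1177.6, 1298.5 and 556 CPM in scMeT-seq cells, against 698, 501 and 617 CPM in whole cells (0.40, 0.29 to 0.51). Ifitm3 had 246, 874, 948 and 645 CPM in scMeT-seq cells, against 279, 393 and 532 CPM in whole cells (0.69, 0.56 to 0.82). For Ifitm2 and Ifitm3 the scMeT-seq cells spread on both sides of the whole cells. Lactic14 was the only cell of this comparison with counts of Ifit3, at 36.6 CPM, and held 36.6 CPM of its neighbour Ifit1.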

How the data were processed

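RNA sequencing counts of 35 cells in 7 groups were used. By the submitters' notes and methods, reads passed through fastp 0.20.0, HISAT2 2.1.0 (mm10) and StringTie. The authors deposited raw gene counts, which are whole numbers and carry no normalization. Molecular identifiers and strand-specific counting are not stated, and reads of overlapping genes or near copies could not be told apart. In the AZD3965 table, even counts outnumber odd ones (1914 values of 1, 6215 of 2, 3912 of 3 and 5228 of 4), and whether both reads of a pair were counted is not stated.

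Rows with the same symbol were added. A group's CPM was its summed count over its summed total. Calculations used scipy 1.17.1, pandas 2.3.3 and numpy 2.4.6 under Python 3.11.15, and matplotlib 3.10.9 drew the figures. Genes with at least 10 counts over both groups were measured, and a log2 ratio past 2-fold was called. Ratios have exact conditional binomial 95% intervals, checked on simulated data, and a sum of 0 was set to 3 counts. TMM factors came from edgeR 4.0.16 in R 4.3.3. Thinning drew counts without replacement.

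4 comparisons were made. A member was given in every cell if it was among the 6 most abundant of a comparison, or was called with an interval away from 0, at least 20 CPM in the higher group and counts in 50% or more of its cells. Up to 4 genes of each pathway list outside the families were eligible by the same rule, besides the receptors. Any other member was named with its values already known. The members and lists were chosen with earlier results of these data known. Marker lists were those of macrophages, fibroblasts, mesothelial cells, B cells, T or NK cells, and neutrophils or mast cells. Lists of large and small peritoneal macrophages and of plasmacytoid and conventional dendritic cells were also made, and their sums are not reported here. Lengths came from GENCODE M21, promoter windows from RefSeq (GRCm38.p6). Alternatives were TMM, the mean of per-cell CPM, the mean of log2(CPM + 1), filters of 100 counts and of none, a 4-fold limit, detection at 5 counts, comparison with all 5 whole cells, each cell left out in turn, and cells with other markers left out. Halved counts in the AZD3965 experiment, the background shares and pathway lists without marker cells, and single cells left out for every called member, were added after the data had been seen. The metabolomes were not analysed here, and the values of some members are not reported here.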

Additional observations from a re-analysis of the deposited data

Results flagged for a closer look

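In 57 sets of 4 or more cells, the named members with the highest or lowest cell far from the rest of its group were looked for with Dixon's criterion at the 95% level, and 5 were found. Chance gives about 1 in 20. Ifi204 reached 439 CPM in Lactic31, and the next lactate cell had 87.9 CPM. Oas1g reached 65.2 CPM in Lactic30, and the next lactate cell had 26.9 CPM. Ifi27l2a reached 110 CPM in CTL31, and the next control cell had 30.3 CPM. Ifitm3 reached 1404.2 CPM in CTL35, a control cell with fibroblast markers, and the next control cell had 703 CPM. In the AZD3965 experiment Stat2 reached 166 CPM in F18, and the next lactate cell had 34.2 CPM.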

How the results depend on the processing

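Counts of members past 2-fold are given as higher and then lower. The number of members measured and the share of all genes called are not given for the alternative settings. The counts below therefore show how calls of members changed and are not set against all genes. In lactate against control they were 7 and 11 as reported and 4 and 4 with a filter of 100 counts, and the lower count was 7 with the mean of log2(CPM + 1) and 5 at a 4-fold limit. With AZD3965 they were 9 and 8 as reported, 0 and 0 with the filter of 100 counts, 4 and 2 at 4-fold, and 5 and 4 with halved counts. In scMeT-seq against whole cells they were 6 and 7 as reported, 2 and 1 with the filter and also at 4-fold, while the higher count was 12 without a filter and 2 against all 5 whole cells. In whole-cell lactate against control they were 5 and 11 as reported, 1 and 5 with the filter, 3 and 4 at 4-fold, and the lower count was 18 without a filter. With each cell left out in turn, the higher and lower counts ran from 6 to 9 and 8 to 12 in lactate against control, from 6 to 10 and 6 to 10 with AZD3965, from 3 to 9 and 3 to 7 in scMeT-seq against whole cells, and from 4 to 10 and 6 to 13 in whole-cell lactate against control. Of 64 calls of members in the 4 comparisons, 11 held with every cell left out in turn, and the sign of 9 turned. In scMeT-seq against whole cells the log2 ratio ran from -3.89 to 2.20 for Gbp7 and from -3.11 to 0.76 for Ifi209, the highest without Lactic5, and from -2.75 to 1.08 for Oasl1, the highest without Lactic7 and against the floor of 3 counts. In lactate against control it ran from -2.34 to 0.53 for Gbp7, the highest without CTL33. In whole-cell lactate against control it ran from -2.14 to 0.43 for Irf7, from -2.08 to 3.27 for Oasl2 and from -2.32 to 0.32 for Stat2, and from -2.90 to 0.10 for Ifi27l2a, the highest without CTL4 (for Ifi27l2a against the floor), and from -2.38 to 1.48 for Ifitm6, the highest without CTL8. With a detection limit of 5 counts, the median number of members per cell was 9 with AZD3965 and 10 with lactate alone in that experiment, and 25 in lactate-treated whole cells. The cause of these changes was not tested, except that a stricter filter or limit leaves fewer members to count.

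No paired analysis was possible because each group counts as 1 sample without a test, and the numbers in the cell names are not stated to mark a shared animal or culture. The letters T, F and W in the names of the AZD3965 experiment occur in both groups and their meaning is not stated. The F cells were the shallowest of each group, at 58444 and 90378 counts in lactate+AZD cells and 90523 counts in the lactate cell. Low counts limit the AZD3965 experiment most: the floor of 3 counts is 5.16 CPM in lactate+AZD cells and 4.16 CPM in lactate cells.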
